A study of Homo sapiens with 12 samples.

Results

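Structure-specific endonucleases cut branched DNA, such as Holliday junctions, flaps and stalled replication forks, so that joined chromosomes can separate after recombination or replication. SLX1 is the cutting subunit of a pair whose scaffold, SLX4, also holds MUS81-EME1 and XPF-ERCC1, while GEN1 resolves Holliday junctions on its own. The same junctions can be taken apart without a cut by the BLM helicase with its topoisomerase partner. The transcripts of 6 genes of this group were measured by RNA-seq in A549 cells, an epithelial line from a human lung adenocarcinoma. They were SLX1A and SLX1B (near-identical copies that both encode SLX1), SLX4, MUS81, EME1 (the partner of MUS81) and GEN1. All 6 were among the 25365 gene names of the deposited table and among the 11881 that averaged 1 FPKM or more across all 12 libraries and were tested.

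The genes were not chosen blindly. SLX1B was selected on its result in these same libraries, a lower value after pyridostatin in the cells labelled PARP3-/-, and the other genes were added for their function. Members are therefore described without a test in that comparison, and SLX1A, SLX1B and their sum also in the comparisons of genotype, which share libraries with it.

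Wild-type A549 cells and A549 cells labelled PARP3-/- received vehicle (DMSO) or 1 μM pyridostatin, a small molecule that stabilizes G-quadruplex (G4) DNA, for 24 h. Each of the 4 groups had 3 biological replicates. PARP3-/- cells were made with transient Cas9 and guides that remove a stretch of the gene, then cloned by dilution. The sources used here do not say how many clones were sequenced. A difference of genotype therefore cannot be told apart from a difference between clones. The values are FPKM from Cufflinks, in which fragments are scaled to the length of the transcript and to the mapped total of the library. The PARP3 transcript was not lower in the libraries labelled PARP3-/-: 4.41 ± 0.447 FPKM (SD, n = 3) with vehicle against 3.73 ± 0.293 in wild type, and 4.58 ± 0.245 against 3.79 ± 0.243 with pyridostatin. Reads from outside the removed stretch do not check the label, and the deposited values cannot separate them. From the steps between low values, depth was approximately 24500000 to 33900000 reads per library. The epithelial keratins KRT8 and KRT18 lay above 2207 FPKM in every library whereas the epithelial adhesion gene EPCAM reached only 0.879 to 2.36 FPKM. The T cell gene CD3E was listed at 0 in all 12, but so were the widely expressed heat shock genes HSPA1A and HSPA1B, so a listed 0 does not show here that a transcript was absent. Replicate 2 of wild type with vehicle stood apart for several genes (BOLA2, near SLX1, was at 52.5 FPKM there and at 36.5 to 44.1 FPKM in the other 11 libraries). In single comparisons, differences of members or of the SLX1 sum that it moved by more than 1.5 times are also given without it. Values that combine comparisons are given only with it.

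SLX1A and SLX1B could hardly be told apart by the reads used here. The first 90 bases of the coding sequence, from GENCODE release 29 (GRCh38), are shown because they are the same in both genes (ATG in capitals).
SLX1A: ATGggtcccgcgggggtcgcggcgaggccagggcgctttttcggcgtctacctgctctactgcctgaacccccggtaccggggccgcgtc
SLX1B: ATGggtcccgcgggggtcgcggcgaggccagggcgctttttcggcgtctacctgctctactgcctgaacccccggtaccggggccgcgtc
The identity ran through the whole coding sequence of 825 bases, or 275 codons without the stop. SLX1A-201, a transcript of 1091 bases, lay whole within SLX1B-201, which had 74 more bases at its 5′ end. All 1017 windows of 75 bases in SLX1A-201, the length of the sequenced reads, also occurred in SLX1B-201. Of the 1091 windows of SLX1B-201, 44 were in no annotated SLX1A transcript. The genomic bases just before SLX1A-201, joined to that transcript, nevertheless held SLX1B-201 whole. The bases before the start were shared too. The 250 bases upstream of SLX1B in RefSeq (GRCh38.p14, chr16:29454283-29454532, + strand) were identical to those upstream of an SLX1A start (chr16:30193625-30193874, + strand), with runs of at least 3 G or C in capitals.
SLX1B and SLX1A: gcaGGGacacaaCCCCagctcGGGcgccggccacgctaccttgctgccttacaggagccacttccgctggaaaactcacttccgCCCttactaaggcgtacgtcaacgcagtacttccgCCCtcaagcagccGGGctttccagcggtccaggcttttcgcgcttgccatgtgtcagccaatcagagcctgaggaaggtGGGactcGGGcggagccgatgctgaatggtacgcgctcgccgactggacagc

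The deposited rows nevertheless gave SLX1A and SLX1B separate values. In wild type with vehicle SLX1A was at 34.4, 47.0 and 34.7 FPKM in replicates 1, 2 and 3. With pyridostatin it was at 33.7, 39.5 and 33.9 FPKM. Libraries labelled PARP3-/- held 29.3, 37.5 and 35.1 FPKM with vehicle. They held 43.3, 44.2 and 43.0 FPKM with pyridostatin, above all 3 vehicle libraries of that genotype. SLX1B was the lower and the more variable row. It was at 4.57, 0.0106 and 3.69 FPKM in wild type with vehicle and at 5.93, 1.23 and 7.64 FPKM with pyridostatin. In the libraries labelled PARP3-/- it was at 14.3, 8.20 and 11.97 FPKM with vehicle and at 0.514, 2.15 and 0.00109 FPKM with pyridostatin. At the median depth 1 FPKM of SLX1 was worth about 25 reads, so the lowest values, 0.0106 and 0.00109 FPKM, were less than 1 read.

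High values of one row went with low values of the other. Over the 12 libraries, which fall into 4 groups, Pearson's r between log2(FPKM + 1) of SLX1B and SLX1A was -0.873, given as a description. The coefficient of variation (SD over mean) over the 12 libraries was 94.6% for SLX1B and 14.2% for SLX1A but 7.31% for their sum. The sum lay between 38.4 and 47.1 FPKM in every library, a ratio of 1.23 between the highest and the lowest.

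**Figure D1:**
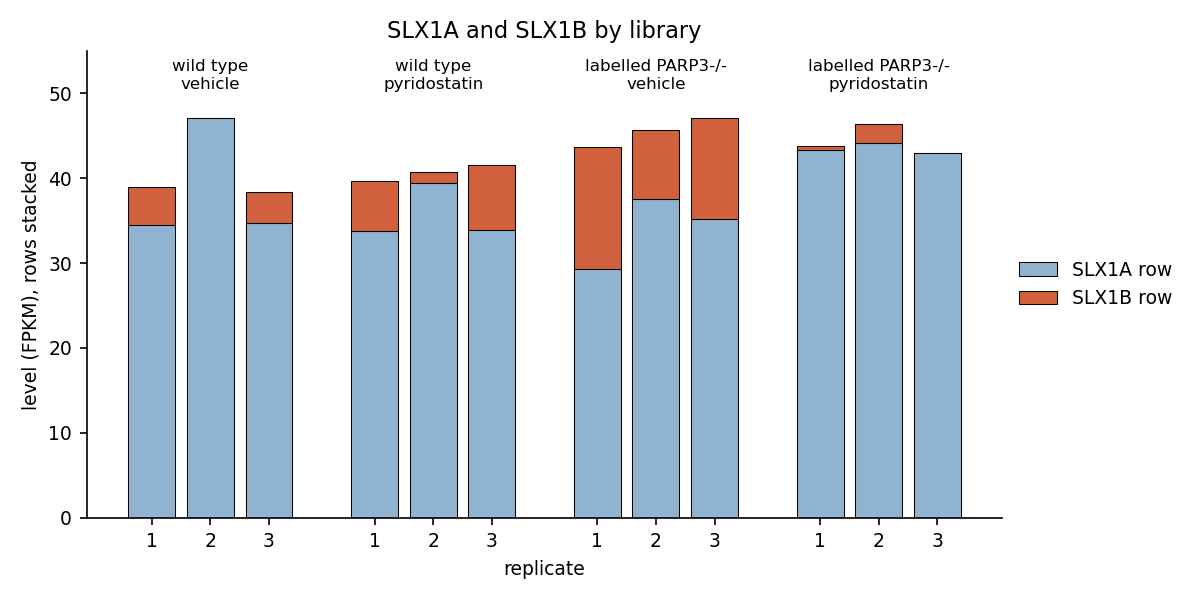
FPKM of the SLX1A row (blue) and the SLX1B row (red), stacked, in each of the 12 libraries (x axis, replicates 1 to 3 of each group). Bar tops, the sum of both rows, stay between 38.4 and 47.1 FPKM, while the SLX1B part runs from 0.00109 to 14.3 FPKM.

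The share of the sum assigned to SLX1B was 9.60% at the median in wild type with vehicle (range 0.0224% to 11.7%) and 14.96% with pyridostatin (3.02% to 18.4%). Libraries labelled PARP3-/- had a median of 25.4% with vehicle (17.9% to 32.9%) and of 1.17% with pyridostatin (0.00255% to 4.63%). These last groups did not overlap, which is the pattern SLX1B was chosen by. The share spanned 32.9 percentage points over the 12 libraries.

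Other near-identical genes were set beside the pair. From a list of 17 pairs, 11 had both rows in the table and a mean sum of at least 1 FPKM, and the share spanned less than that of SLX1B in all 11. FAM45A and FAM45B came next with 23.5 points. The remaining pairs spanned 8.04 points or less, among them SMN1 and SMN2, the survival motor neuron genes, with 7.59 points. That ranking is no test, because both ends of the SLX1B span lie in the libraries SLX1B was chosen on. In the wild-type libraries alone, SLX1B held 0.0224% to 18.4% of its sum. FAM45A held 44.5% to 63.2% there, a span of similar width. The closest comparison lies beside SLX1 itself. BOLA2 and BOLA2B, copies in the same duplicated stretch of chromosome 16, had equal values in all 12 libraries. The sulfotransferase copies SULT1A3 and SULT1A4, the genes next to SLX1A and SLX1B, shared their sum at 50.3% to 51.2% throughout.

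**Figure D2:**
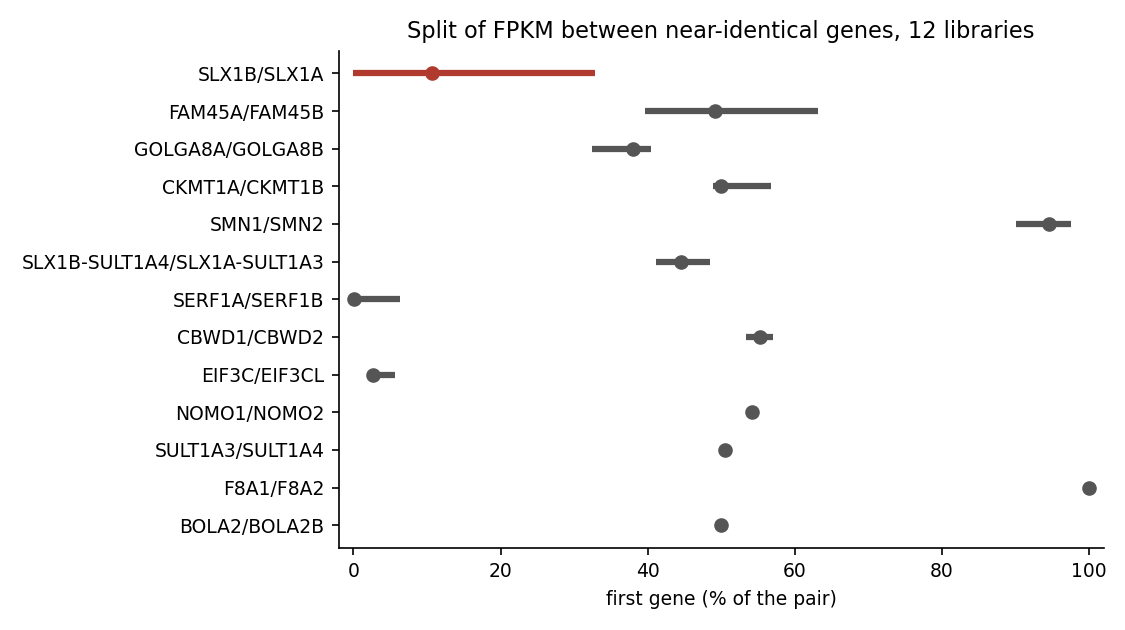
Percent of the summed FPKM of a near-identical pair that its first-named gene held (x axis), as the range over the 12 libraries (line) and the median (point), 1 row per pair. The SLX1B share (red) runs from 0.00255% to 32.9%, a wider span than that of the other pairs drawn. Both of its ends lie in libraries that SLX1B was chosen on.

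The table also lists read-through genes that join each SLX1 copy to its SULT1A neighbour. SLX1A-SULT1A3 lay between 2.02 and 4.85 FPKM and SLX1B-SULT1A4 between 1.47 and 3.62 FPKM. The SLX1B member of this pair held 41.2% to 48.5% of their sum, a span of 7.28 points. Between pyridostatin and vehicle in the libraries labelled PARP3-/-, SLX1B-SULT1A4 differed by -0.51 (SE 0.147) on the log2(FPKM + 1) scale and SLX1A-SULT1A3 by -0.41 (SE 0.189). Both are given without a test, because they contain SLX1 and SLX1B was chosen on this comparison. In wild type the differences were 0.04 (limma adjusted p = 0.920) and -0.0078 (limma adjusted p = 0.991). Adding both read-through rows to the SLX1 sum left its log2 difference after pyridostatin in wild type at -0.02 but moved that in the libraries labelled PARP3-/- from -0.04 to -0.098. It also moved the difference between genotypes with pyridostatin from 0.12 to 0.079.

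The next question was whether pyridostatin changed these transcripts in wild-type cells, the comparison that did not choose the members. None of the 6 genes, nor the SLX1 sum, passed an adjusted p of 0.05 in limma's moderated test on log2(FPKM + 1), against 4.17% of all 11881 genes. An unadjusted p under 0.05 was reached by 0 of the 6 and by 2410 of all 11881 genes. Summed SLX1, the cutting subunit, was at 41.5 ± 4.83 FPKM (SD, n = 3) with vehicle and 40.6 ± 0.920 with pyridostatin, a log2 difference of -0.02 (SE 0.0686, 95% interval -0.18 to 0.13, limma adjusted p = 0.882). Replicate 2 with vehicle held 47.0 FPKM against 39.0 and 38.4 in the others, and without it the difference was 0.07 (limma adjusted p = 0.360). For the rows alone the log2 differences were -0.10 for SLX1A (limma adjusted p = 0.682) and 0.78 (SE 0.691) for SLX1B (limma adjusted p = 0.575). Without replicate 2 of the vehicle group these became 0.04 and 0.0012, so that library set both values.

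SLX4, the scaffold, was at 2.99, 2.72 and 3.13 FPKM with vehicle and 3.07, 3.02 and 3.16 FPKM with pyridostatin. The groups overlapped and the log2 difference was 0.05 (95% interval -0.06 to 0.16, limma adjusted p = 0.619), and 0.0089 without replicate 2 of the vehicle group. MUS81, the nuclease that SLX4 carries, was at 14.4, 14.7 and 12.7 FPKM with vehicle and 13.2, 13.8 and 13.0 FPKM with pyridostatin. Its log2 difference was -0.06 (95% interval -0.20 to 0.08, limma adjusted p = 0.657), and -0.019 without that replicate. GEN1, the free-standing resolvase, was at 6.22, 4.86 and 6.45 FPKM with vehicle and 6.26, 5.78 and 5.86 FPKM with pyridostatin, again with overlap. Its log2 difference was 0.03 (95% interval -0.16 to 0.23, limma adjusted p = 0.869) and -0.07 without replicate 2 of the vehicle group.

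EME1 was the gene whose wild-type groups did not overlap, as for 23.1% of all tested genes. It was at 9.58, 10.2 and 10.0 FPKM with vehicle and 9.39, 8.13 and 9.22 FPKM with pyridostatin. Every pyridostatin library lay below every vehicle library, by a log2 difference of -0.14 (SE 0.0667, 95% interval -0.29 to 0.0042), and limma's adjusted p of 0.260 missed the threshold. Over the alternatives the adjusted p ran from 0.195 to 0.532. Without replicate 2 of the pyridostatin group, the lowest library, the difference was -0.085.

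**Figure D3:**
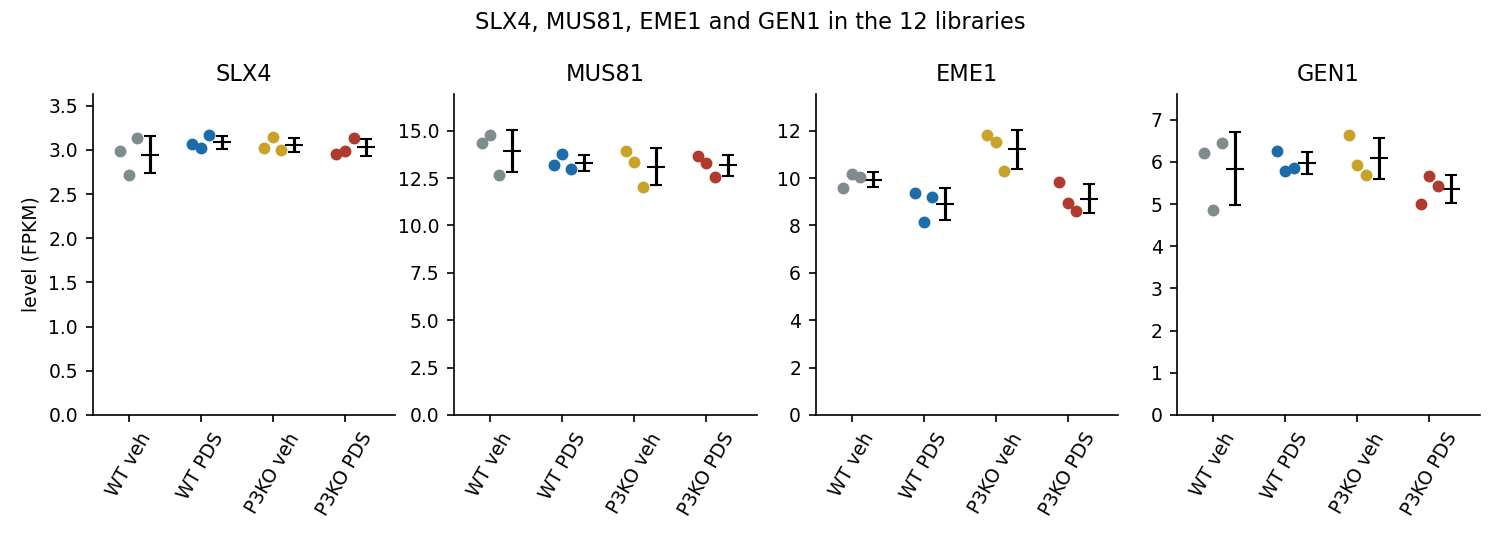
FPKM (y axes, from 0, a separate scale for each gene) of SLX4, MUS81, EME1 and GEN1 in wild type (WT) and libraries labelled PARP3-/- (P3KO) with vehicle (veh) or pyridostatin (PDS). Points are libraries and bars the mean ± SD of 3, and EME1 with pyridostatin lies below EME1 with vehicle in each genotype.

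In the libraries labelled PARP3-/-, where the members are described without a test, EME1 was at 11.8, 11.5 and 10.3 FPKM with vehicle and 9.82, 8.95 and 8.62 FPKM with pyridostatin. These groups did not overlap, and the log2 difference was -0.27 (SE 0.0667). GEN1 was at 6.63, 5.94 and 5.69 FPKM with vehicle and 5.01, 5.67 and 5.43 FPKM with pyridostatin, without overlap, the nearest libraries being at 5.69 and 5.67 FPKM, and with a log2 difference of -0.15 (SE 0.0879) that was -0.099 without replicate 1 of its vehicle group. SLX4 held 3.02, 3.15 and 3.00 FPKM with vehicle against 2.96, 2.99 and 3.14 FPKM with pyridostatin, and MUS81 13.9, 13.4 and 12.02 FPKM against 13.7, 13.3 and 12.6 FPKM. Both overlapped, with log2 differences of -0.01 for SLX4 and 0.01 for MUS81.

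Summed SLX1 was at 45.5 ± 1.74 FPKM with vehicle and 44.4 ± 1.74 FPKM with pyridostatin (SD, n = 3), a log2 difference of -0.04 (SE 0.0686). Its rows went opposite ways. SLX1B stood at 11.5 ± 3.10 FPKM with vehicle and 0.887 ± 1.12 FPKM with pyridostatin, a log2 difference of -2.86 (SE 0.691) with the pseudocount of 1 and of -4.45 with a pseudocount of 0.1. SLX1A stood at 34.0 ± 4.23 FPKM and 43.5 ± 0.625 FPKM, a log2 difference of 0.35 (SE 0.121). Of the 6 genes, 4 (SLX1A, SLX1B, EME1 and GEN1) had groups without overlap, where 32.3% of all tested genes did. This count includes the gene that chose the list, and also SLX1A, whose row shares a sum with it. The groups of that sum overlapped.

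The pyridostatin differences of the cells labelled PARP3-/- and of wild type were also set side by side, with no test for the members. The first minus the second was -3.64 for SLX1B and 0.46 for SLX1A on the log2 scale, but -0.01 for their sum. It was -0.12 for EME1, -0.19 for GEN1, 0.07 for MUS81 and -0.06 for SLX4. The value of the sum depended on replicate 2 of wild type with vehicle. Without that library its wild-type difference was 0.07, beside -0.04 in the labelled PARP3-/- libraries. The wild-type differences of GEN1, MUS81 and SLX4 also moved without it, as given above.

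The comparison of genotype asked whether the transcripts differed between the cells labelled PARP3-/- and wild type. Of SLX4, MUS81, EME1 and GEN1, none passed an adjusted p of 0.05 in limma with vehicle, where 9.41% of all tested genes did, or with pyridostatin, where 10.9% did. At an unadjusted p under 0.05 there was 1 with vehicle, EME1, and 0 with pyridostatin. Of all 11881 tested genes, 2564 with vehicle and 2855 with pyridostatin were under that value. EME1 was higher with vehicle in all 3 libraries labelled PARP3-/- than in all 3 of wild type (24.2% of all tested genes did not overlap), with a log2 difference of 0.16 (95% interval 0.0093 to 0.30, limma adjusted p = 0.201). With pyridostatin it differed by 0.03 (95% interval -0.12 to 0.18, limma adjusted p = 0.837). GEN1 differed by 0.06 with vehicle (limma adjusted p = 0.787) and by -0.13 with pyridostatin (95% interval -0.33 to 0.06, limma adjusted p = 0.418), where the groups did not overlap, as for 35.2% of all tested genes. MUS81 differed by -0.08 (limma adjusted p = 0.540) and -0.01 (limma adjusted p = 0.940), and SLX4 by 0.04 (limma adjusted p = 0.714) and -0.02 (limma adjusted p = 0.866). Without replicate 2 of wild type with vehicle, the vehicle differences were -0.052 for GEN1, -0.041 for MUS81 and -0.00092 for SLX4.

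The genotypes were then compared over both treatments together, in a test run only with all 12 libraries. An exact two-sided permutation of the genotype labels within each treatment (400 arrangements, smallest possible p of 0.005) found a mean difference of 0.745 FPKM for EME1 (p = 0.1), -0.180 FPKM for GEN1 (p = 0.595), -0.469 FPKM for MUS81 (p = 0.335) and 0.0269 FPKM for SLX4 (p = 0.77). Summed SLX1 was 0.14 higher on the log2 scale in the libraries labelled PARP3-/- with vehicle, and 0.23 higher without replicate 2 of wild type with vehicle. With pyridostatin it was 0.12 higher, with all 3 libraries at 43.0 to 46.3 FPKM against 39.7 to 41.5 FPKM in wild type. SLX1B alone differed by 2.04 with vehicle and by -1.60 with pyridostatin, and SLX1A by -0.18 and 0.28. Without that same library the vehicle values were 1.26 for SLX1B and -0.031 for SLX1A.

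**Figure D4:**
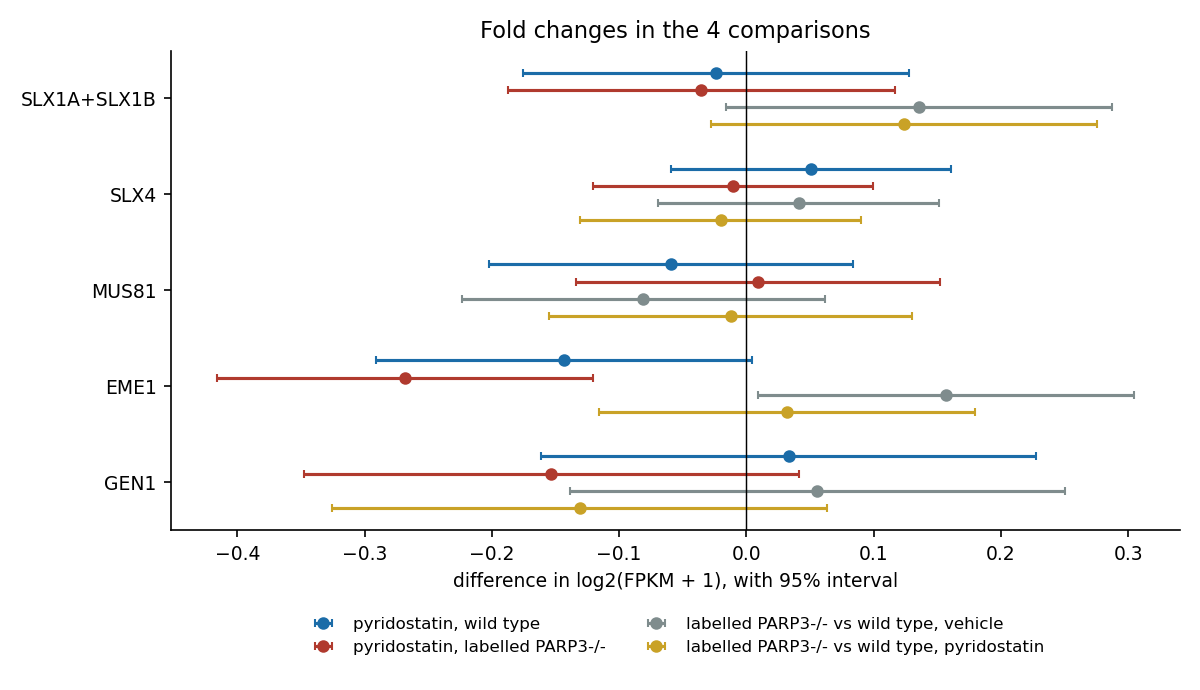
Differences in log2(FPKM + 1) with 95% intervals (x axis) for summed SLX1, SLX4, MUS81, EME1 and GEN1 (rows) in the 4 comparisons (colours), each from 3 libraries a group. The point farthest from 0 is EME1 after pyridostatin in the libraries labelled PARP3-/-, at -0.27. Intervals in that comparison, and those of summed SLX1 between genotypes, are given as a description and are no test.

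Per kilobase, the levels of summed SLX1, MUS81, EME1, GEN1 and SLX4 kept an order over the libraries, whereas SLX1B alone ran from below SLX4 to above MUS81. Summed SLX1 had a median of 43.3 FPKM, followed by MUS81 (13.3 FPKM), EME1 (9.70 FPKM), GEN1 (5.82 FPKM) and SLX4 (3.02 FPKM). The ranges of neighbours in this order did not overlap over the 12 libraries: MUS81 spanned 12.02 to 14.7 FPKM, EME1 8.13 to 11.8 FPKM, GEN1 4.86 to 6.63 FPKM and SLX4 2.72 to 3.16 FPKM. SLX4 varied least, with a coefficient of variation of 4.01%, against 5.79% for MUS81, 9.27% for GEN1 and 11.04% for EME1. At the median depth the approximate number of reads behind the median level was 605 for SLX4, 823 for MUS81, 585 for EME1 and 1012 for GEN1, which alone gives counting errors of 3.14% to 4.13%. For SLX4 the counting error, 4.07%, was close to its whole spread over the libraries.

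The genes with the most similar pattern were sought among the 8498 with a mean of at least 5 FPKM, by Pearson's r of log2(FPKM + 1) over the 12 libraries, which share the 4 groups. For GEN1 they included RAD50 (r = 0.949) and KNTC1 (0.921). EME1 was closest to PLCB3 (0.909), NUCB2 (0.894) and PSRC1 (0.891). UBN1, KAT6A and PABPC3 were closest to SLX4, with r of 0.905, 0.903 and 0.903, and SNORA4 (0.885), UCKL1 (0.868) and SETD8 (0.824) to MUS81. Summed SLX1 was closest to ZNF428 (0.949), NGFRAP1 (0.946) and FAM3A (0.936). The SLX1B row had other neighbours, EFTUD1 (0.896), CEP78 (0.881) and FAM72C (0.879).

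Because pyridostatin binds G4 DNA, promoter windows were searched for the letters of a G4 motif, 4 runs of GGG or longer with loops of 1 to 7 bases, on both strands (a run of CCC is GGG on the other strand). RefSeq gave 8 windows for the 6 genes, each from 250 bases before to 50 after a start. The motif was in 1 of the 8, against 25.0% of all 35116 windows of that length. The 8 are not separate promoters, because the SLX1B window is identical to an SLX1A window and the SLX1A windows overlap. The count is therefore a description only. The motif lay upstream of GEN1 (GRCh38.p14, chr2:17753619-17753868, + strand), shown for that match with runs of at least 3 G or C in capitals.
GEN1: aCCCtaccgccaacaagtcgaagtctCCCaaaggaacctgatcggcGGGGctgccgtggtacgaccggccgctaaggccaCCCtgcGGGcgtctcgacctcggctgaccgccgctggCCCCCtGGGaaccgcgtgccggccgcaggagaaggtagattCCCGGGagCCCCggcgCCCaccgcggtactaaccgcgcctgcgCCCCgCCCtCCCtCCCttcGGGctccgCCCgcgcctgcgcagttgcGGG
The match is a description of letters, and no G4 was measured here. GEN1, the gene with this window, differed by 0.03 (log2) after pyridostatin in wild type, and by -0.07 without replicate 2 of the vehicle group. In the libraries labelled PARP3-/- the difference of GEN1 was -0.15, as given above. The other GEN1 window held no motif, and whether the motif bears on these values was not tested.

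Other genes that cut or undo the same structures were taken from a list of 23, made of 12 other nucleases, 7 partners of SLX4 and 4 genes of the BLM complex, which takes junctions apart without cutting. All 23 were tested. After pyridostatin in wild type 1 rose and 1 fell (8.70% of the list, beside 4.17% of all genes). TERF2, the telomere-binding protein that SLX4 contacts, rose from 11.3 ± 0.289 to 14.2 ± 0.210 FPKM (SD, n = 3), by 0.30 on the log2 scale (SE 0.0505, limma adjusted p = 0.0093). RMI2, an OB-fold subunit of the BLM complex, fell from 28.0 ± 2.23 FPKM to 21.8 ± 1.09, a log2 difference of -0.34 (SE 0.0563, limma adjusted p = 0.0076). The median over the list was -0.07, against 0.0030 over all genes tested.

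In the libraries labelled PARP3-/- 1 gene of the 23 rose and 3 fell after pyridostatin (17.4%, beside 5.56% of all genes). TERF2 rose again, from 12.1 ± 0.595 to 14.1 ± 0.994 FPKM, by 0.21 (limma adjusted p = 0.0399). FEN1, the flap endonuclease of Okazaki fragment processing, fell from 72.0 ± 1.23 to 59.8 ± 2.84 FPKM, a log2 difference of -0.26 (limma adjusted p = 0.0116). EXO1, a 5′ to 3′ exonuclease of resection and mismatch repair, fell from 15.2 ± 0.208 to 12.7 ± 0.190 FPKM (-0.24, limma adjusted p = 0.0284). Without replicate 2 of wild type with vehicle the counts were 6 and 9 of the 23 instead of 2 and 4, and in the labelled PARP3-/- libraries none of the 23 passed without replicate 3 of either of its groups. With any 1 of the other 9 libraries left out, 1 to 3 passed there, FEN1 each time. The falls of FEN1 and EXO1 were not shown to differ from wild type: the log2 differences there were -0.16 for both, and the interaction in limma gave an adjusted p of 0.999 for each. XPF-ERCC1, the other nuclease that SLX4 carries, had log2 differences of -0.02 and -0.05 for ERCC4, which encodes XPF, and of -0.08 and -0.12 for ERCC1, in wild type and the labelled PARP3-/- libraries, with limma adjusted p from 0.352 to 0.932. Between genotypes none of the 23 passed in limma, with 1 at an unadjusted p under 0.05 with vehicle and 2 with pyridostatin. Of all 11881 tested genes, 2564 and 2855 were under that value.

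**Figure D5:**
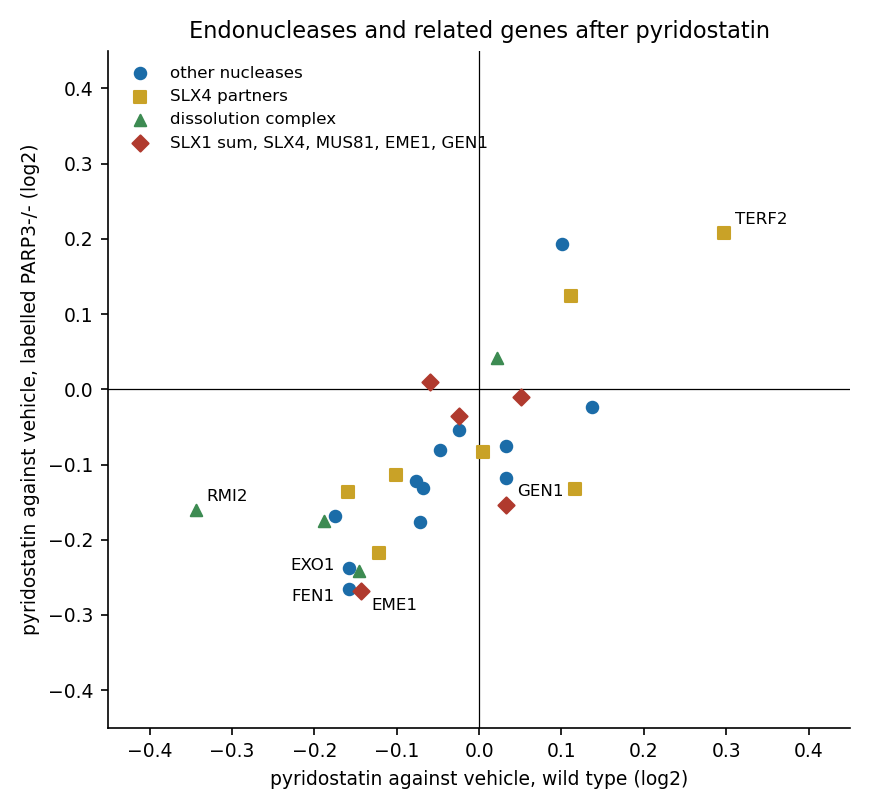
Log2 differences between pyridostatin and vehicle in wild type (x axis) and in libraries labelled PARP3-/- (y axis) for the 23 related genes in their 3 classes and for summed SLX1, SLX4, MUS81, EME1 and GEN1 (diamonds). EME1 lies beside FEN1 and EXO1 at lower left, and TERF2 at upper right.

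A list of 11 genes of S phase, mitosis and p53 was read in the same libraries. After pyridostatin 1 rose and 2 fell in wild type (27.3%, beside 4.17% of all genes), and 1 rose and 3 fell in the libraries labelled PARP3-/- (36.4%, beside 5.56%). The others did not pass, among them PCNA, the replication clamp, with log2 differences of 0.08 and 0.05 (limma adjusted p = 0.296 and 0.567). CDKN1A, the p21 inhibitor induced by p53, rose from 87.0 ± 7.27 to 193 ± 3.40 FPKM in wild-type cells (1.14, limma adjusted p = 1.1e-05) and from 100.1 ± 3.90 to 208 ± 8.67 FPKM in the labelled PARP3-/- libraries (1.05, limma adjusted p = 3.2e-05). E2F1, a transcription factor of the G1/S transition, fell by 0.44 and 0.39, and MCM2, a subunit of the replicative helicase, by 0.31 and 0.34 on the log2 scale (limma adjusted p from 0.00083 to 0.0080). AURKA, a mitotic kinase, fell by 0.21 in the labelled PARP3-/- libraries (limma adjusted p = 0.0030), where its difference in wild type was -0.10 (limma adjusted p = 0.0854). EME1 was lower in those same libraries, and the part of the cell cycle in its values was not tested. Bulk RNA cannot tell fewer cells in a phase from less RNA per cell.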

How the data were processed

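RNA-seq libraries (stranded mRNA, single-end reads of 75 bases) came from 12 samples, 3 biological replicates in each of 4 groups taken from the labels. Per the labels, the authors deposited FPKM values from Cufflinks, 1 column per library, so alignment, assignment of shared reads between near-identical genes and scaling were done before deposit. The submitters' processing notes name bcl2fastq 2.16, STAR 2.5, Cufflinks and the builds hg19 and mm9, without roles. The authors' own tests used DESeq2 on counts that were not used here, and FPKM allow no count test.

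Genes averaging 1 FPKM or more were tested on log2(FPKM + 1), a scale that understates changes of low genes, with limma 3.58.1 in R 4.3.3. All 12 libraries entered 1 model of the 4 groups without a block, using limma's trended eBayes. Benjamini-Hochberg adjustment ran over all 11881 genes, and 0.05 was the threshold. Genotype was also compared by an exact permutation test within treatments. Only the limma fit of genotype with vehicle was tested on simulated data, with independent normal noise. Python 3.11.15, numpy 2.4.6, pandas 2.3.3 and matplotlib 3.10.9 did the rest.

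The members, the lists of related genes, near-identical pairs and markers, and the tests were chosen with earlier results of these data known. The text names the 6 members, the listed genes that passed in at least 1 comparison (at most 10, by p), the 3 genes most similar to each member or sum, and the neighbours of SLX1. ERCC1, ERCC4, the pairs FAM45A and FAM45B and SMN1 and SMN2, HSPA1A, HSPA1B, PCNA and the markers of cell type were added after their values were seen. Some genes that meet the rule are not reported here. Depth was estimated from the FPKM worth of 1 read with an assumed fragment length of 200 bases and is approximate. Alternatives were another pseudocount, other filters and scalings, a replicate block, other variance settings and each library left out in turn. The sum with read-through rows was added after seeing the data.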

Additional observations from a re-analysis of the deposited data

How the results depend on the processing

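No member passed the threshold in limma in wild type after pyridostatin, nor SLX4, MUS81, EME1 or GEN1 between genotypes, under any alternative run, but small differences changed sign. With quantile normalization the difference after pyridostatin in wild type was 0.012 for summed SLX1, -0.00013 for SLX4 and -0.0086 for GEN1, and that of genotype with vehicle was -0.012 for SLX4. With each library left out in turn, the wild-type difference ran from -0.075 to 0.068 for summed SLX1, -0.18 to 0.041 for SLX1A, 0.0012 to 1.38 for SLX1B, 0.0089 to 0.085 for SLX4, -0.12 to -0.019 for MUS81, -0.18 to -0.085 for EME1, and -0.075 to 0.099 for GEN1. The genotype difference with vehicle ran from -0.00092 to 0.075 for SLX4, -0.14 to -0.025 for MUS81 and -0.052 to 0.12 for GEN1, and with pyridostatin from -0.026 to 0.069 for EME1 and -0.038 to 0.019 for MUS81. The cause was not tested.

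Of the 23 related genes, the number that passed after pyridostatin in wild type was 2, with 2 to 6 over the libraries left out, and 0 when only the libraries of that comparison were fitted. In the libraries labelled PARP3-/- it was 4, with 0 to 9 over the libraries left out (9 without replicate 2 of wild type with vehicle, 0 without replicate 3 of vehicle or of pyridostatin in that genotype), and 2 without a filter on the mean. Requiring also an absolute log2 fold change above 1 left 0 in both. Between genotypes it was 0, with 0 to 1 over the libraries left out, with vehicle (TOPBP1) and with pyridostatin (RMI2). With pyridostatin RMI2 also passed, giving 1, with quantile normalization, with only the libraries of that comparison, and with the replicate block. The block changed no other call, and the replicate numbers were not taken as pairs: correlations of same-numbered libraries ran from -0.120 to 0.216. The permutation test on log2(FPKM + 1) left all 4 genes above the threshold, with p from 0.1 to 0.755. Depth was only estimated from the FPKM, so the counting errors given for the members are approximate and no interval was set on single values.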
